A study of Homo sapiens with 6 samples.

Results

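The genes described here are 7 long noncoding RNAs that are known to stay mostly in the cell nucleus: MALAT1, NEAT1, KCNQ1OT1, TUG1, OIP5-AS1, PVT1 and MIAT. They were taken by gene name from a table of 58735 genes, and all 7 were present. They were chosen by name with their fold changes between these libraries known, MALAT1 for a strong rise, so their changes between groups are given as descriptions with errors and without a test. The series compared HUCCT1 cells, an established human line of bile duct cancer (cholangiocarcinoma), after silencing of C1QBP, a protein found mainly in the mitochondrial matrix. The 3 libraries of the treated group came from cells that received a small interfering RNA (siRNA) to C1QBP, named siC1QBP, and the 3 libraries of the control group from cells that received the control siRNA, named siNC. The labels give no time after transfection, no siRNA sequence and no separate cultures for the replicates. RNA was extracted from whole cells, with no nuclear fraction, so the nuclear location of these transcripts is background and was not measured.

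MALAT1 gathers in nuclear speckles, domains rich in splicing factors, and NEAT1 is the scaffold of paraspeckles, bodies that form around the long NEAT1 isoform and hold back proteins and RNAs. Both transcripts can end without a poly(A) tail: RNase P cuts them just before a tRNA-like RNA, and the new end folds into a triple helix in which an A-rich tract lies between U-rich motifs and is shielded from decay. KCNQ1OT1 is an imprinted antisense transcript that silences neighbouring genes on the paternal chromosome, and TUG1, OIP5-AS1, PVT1 and MIAT are spliced RNAs with roles described in chromatin, RNA binding, MYC control and splicing. TUG1 and OIP5-AS1 are also known in the cytoplasm.

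The 3′ ends of MALAT1 and NEAT1 are shown because this ending is known for both transcripts and decides whether a molecule carries a tail. The sequences are from GENCODE release 29 (GRCh38, plus strand), written 5′ to 3′ with T for U. Capitals mark the U-rich motifs and the closing A-rich tract of the triple helix. The MALAT1 element lies at chr11:65506029-65506116 and the last bases of the long NEAT1 transcript at chr11:65445441-65445540. The tRNA-like RNAs, annotated as separate genes with the family name RF01684, start at the very next base, at chr11:65506117-65506173 and chr11:65445541-65445598.
MALAT1 3′ end: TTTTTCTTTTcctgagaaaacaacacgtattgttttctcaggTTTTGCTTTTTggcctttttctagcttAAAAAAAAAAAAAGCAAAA
NEAT1 3′ end: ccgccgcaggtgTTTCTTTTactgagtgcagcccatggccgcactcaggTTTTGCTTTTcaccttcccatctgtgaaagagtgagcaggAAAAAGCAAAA
tRNA-like RNA after MALAT1: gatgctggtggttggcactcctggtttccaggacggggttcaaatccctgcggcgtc
tRNA-like RNA after NEAT1: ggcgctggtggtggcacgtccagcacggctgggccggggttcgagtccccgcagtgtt
A search of the sense strand for TTTTGCTTTT followed by AAAAGCAAAA in the final 500 bases found the pair in 6 of 168622 annotated transcripts (0.00356%), which belong to 4 genes, MALAT1, NEAT1, NDUFA5 and RETREG3. The annotated MALAT1 transcript runs 353 bases past the element shown, so its model covers RNA on both sides of the cut. Neither tRNA-like RNA had a count in any of the 6 libraries, and the gene counts cannot separate cut from uncut MALAT1 or the short from the long NEAT1 isoform.

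Library totals were 17122252 to 18847340 counts in siC1QBP and 18313264 to 20416243 in siNC, and 3 counts in a library amount to 0.147 to 0.175 CPM. CPM are counts scaled to a common library size after TMM adjustment. C1QBP itself had 58.9 ± 1.19 CPM in siC1QBP against 180 ± 4.94 CPM in siNC (SD, n = 3 each). Replicate 1 of each group stood apart: the chi-square statistic per degree of freedom over genes was 6.66 and 6.77 between siC1QBP replicate 1 and its fellow replicates but 2.09 between those, and 3.67 and 3.40 for siNC replicate 1 against 2.13. The bile duct markers KRT7, KRT19, KRT8, KRT18 and EPCAM were at 309.8 CPM or more in every library, SOX9 at 55.1 to 68.2 CPM, while ALB, APOA1, TTR, PTPRC and CD3E were at 0.173 CPM or less. COL3A1, PDGFRB, PECAM1 and VWF, markers of fibroblasts and endothelium, lay between 0 and 2.71 CPM.

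MALAT1 was 1.79-fold higher in siC1QBP cells, NEAT1 1.27-fold and KCNQ1OT1 1.39-fold, while TUG1, OIP5-AS1 and PVT1 lay within 5% of their control levels and MIAT was close to the limit of detection. The edgeR fit over 15530 genes put MALAT1 and NEAT1 past an adjusted p of 0.05 in the higher direction, 2 of 7, where 6.47% of all tested genes were called higher and 14.3% were called in either direction. Groups did not overlap, with siC1QBP higher, for MALAT1 and KCNQ1OT1, against 16.0% of all tested genes. These counts restate how the genes were chosen and carry no weight of their own, and 1 of 7 was called when any 1 library other than siC1QBP replicate 1 was left out. Of all tested genes 1005 were called higher and 1217 lower. Without siNC replicate 2 the numbers were 524 and 581, and without siNC replicate 3 they were 560 and 618. With library size as the sole scaling the split was 1253 higher and 908 lower, and with upper quartile scaling 1280 and 946. In bulk RNA a change in the number of cells that hold a transcript and a change in RNA per cell cannot be told apart.

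MALAT1 (ENSG00000251562; hg38 chr11:65497688-65506516, plus strand) had 285, 316 and 294 CPM in siC1QBP replicates 1, 2 and 3, against 179, 159 and 162 CPM in siNC replicates 1, 2 and 3. The lowest siC1QBP library was far above the highest siNC library. The means were 298 ± 16.0 CPM in siC1QBP against 166 ± 10.98 CPM in siNC (SD, n = 3 each), resting on 5121 to 5591 counts and 2971 to 3261 counts per library. The log2 fold change was 0.84 (SE 0.05; 95% interval 0.74 to 0.94), rank 278 from the top of 15530 tested genes. Leaving out any 1 library gave 0.80 to 0.89. The spread of MALAT1 within groups was ordinary, larger than in 53.2% of genes with at least 5 CPM.

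**Figure D1:**
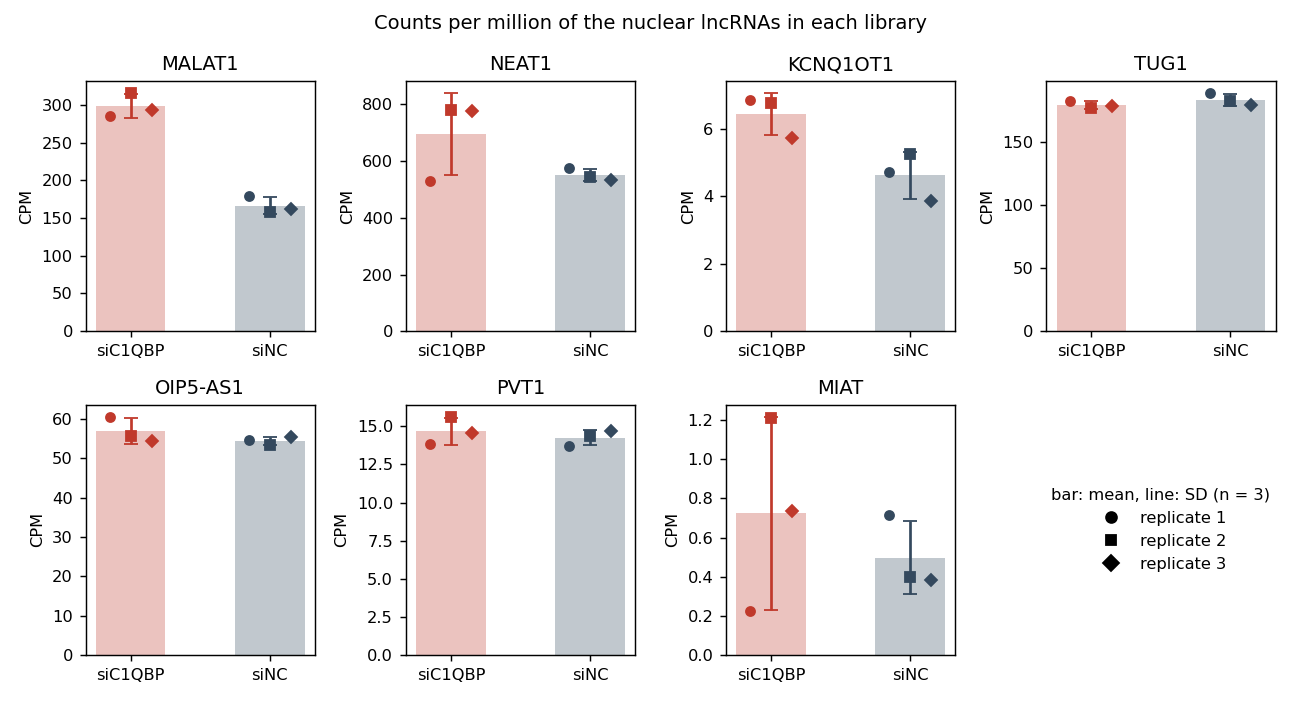
CPM of each of the 7 nuclear lncRNAs (vertical axis, 1 panel per gene, each from 0) in the 3 siC1QBP libraries (left, red) and the 3 siNC libraries (right, grey-blue). Points are libraries, bars are means and lines are SD (n = 3). The MALAT1 groups are apart, NEAT1 in siC1QBP replicate 1 lies at the siNC level, and the groups overlap for TUG1, OIP5-AS1, PVT1 and MIAT.

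NEAT1 (ENSG00000245532; chr11:65422774-65445540, plus strand) had 530, 782 and 778 CPM in siC1QBP replicates 1 to 3, against 574, 544 and 534 CPM in siNC replicates 1 to 3. Replicates 2 and 3 of siC1QBP were above every siNC library, and replicate 1 was below every siNC library. The means were 697 ± 144 CPM in siC1QBP against 551 ± 21.0 CPM in siNC (SD, n = 3 each), a coefficient of variation of 20.7% against 3.82%. NEAT1 varied more within groups than 96.4% of genes with at least 5 CPM, although it held 9543 to 14819 counts in each library, where counting error is small. Its log2 fold change was 0.34 (SE 0.10; 95% interval 0.15 to 0.53). It became 0.50 without siC1QBP replicate 1, 0.25 without siC1QBP replicate 2 or 3, and 0.53 without replicate 1 of both groups. The edgeR error borrows spread from other genes, so the interval may be too narrow for a gene that varies this much. DESeq2 gave 0.34 with an SE of 0.17, and edgeR on every gene with at least 1 count gave 0.32 with an SE of 0.04.

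MALAT1 and NEAT1 lie 52148 bases apart on the same strand of chromosome 11, and their ratio differed between the libraries. There were 0.537, 0.404 and 0.377 MALAT1 counts per NEAT1 count in siC1QBP replicates 1 to 3, against 0.312, 0.292 and 0.303 in siNC replicates 1 to 3. The ratio was above every siNC value in all 3 siC1QBP libraries, and highest in siC1QBP replicate 1, where NEAT1 was at the siNC level and MALAT1 was not. Replicate 1 of siC1QBP also had the largest share of counts from mitochondrially encoded genes, 4.80%, against 4.28% and 4.20% in the other siC1QBP libraries and 3.66% to 3.88% in siNC. The part of this in the NEAT1 value was not tested.

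KCNQ1OT1 (ENSG00000269821; chr11:2608328-2699994, minus strand) is annotated as a single unspliced transcript of 91667 bases, inside KCNQ1 and antisense to it. It had 6.84, 6.75 and 5.72 CPM in siC1QBP replicates 1 to 3, against 4.72, 5.26 and 3.87 CPM in siNC replicates 1 to 3, so the groups did not overlap. This rests on 109 to 123 counts per library in siC1QBP and 71 to 106 in siNC. The log2 fold change was 0.47 (SE 0.16; 95% interval 0.16 to 0.79), and 0.36 to 0.58 with any 1 library left out. If the counting ignored strand, reads of unspliced KCNQ1 RNA would be counted here too. KCNQ1 itself had 10 counts in all 6 libraries together.

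TUG1, OIP5-AS1 and PVT1 differed little between the groups. TUG1 (ENSG00000253352; chr22:30969245-30979395, plus strand) had 182, 176 and 178 CPM in siC1QBP, against 188, 182 and 179 CPM in siNC. Its log2 fold change was -0.03 (SE 0.04; 95% interval -0.12 to 0.05), and its spread within groups was smaller than in most genes, above 5.66% of them. OIP5-AS1 (ENSG00000247556; chr15:41283990-41309737, plus strand) had 60.6, 55.6 and 54.5 CPM in siC1QBP and 54.7, 53.3 and 55.3 CPM in siNC, a log2 fold change of 0.06 (SE 0.06; 95% interval -0.05 to 0.18). The groups overlap in both genes, and siC1QBP replicate 1 is the highest OIP5-AS1 library. PVT1 (ENSG00000249859; chr8:127794533-128101253, plus strand), which neighbours MYC, had 13.8, 15.6 and 14.5 CPM in siC1QBP and 13.7, 14.3 and 14.7 CPM in siNC, a log2 fold change of 0.04 (SE 0.09; 95% interval -0.15 to 0.23). For these 3 genes the intervals leave out a change as large as that of MALAT1.

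MIAT (ENSG00000225783; chr22:26646428-26676475, plus strand), an RNA best known from neurons and retina, had 4, 21 and 14 counts in siC1QBP replicates 1 to 3, against 13, 8 and 7 counts in siNC replicates 1 to 3. The siC1QBP libraries spanned the siNC range on both sides. The log2 fold change was 0.53 with a 95% interval of -0.49 to 1.55, and it was -0.03 without siC1QBP replicate 2 and 0.96 without siC1QBP replicate 1. A difference was not detectable at this depth.

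**Figure D2:**
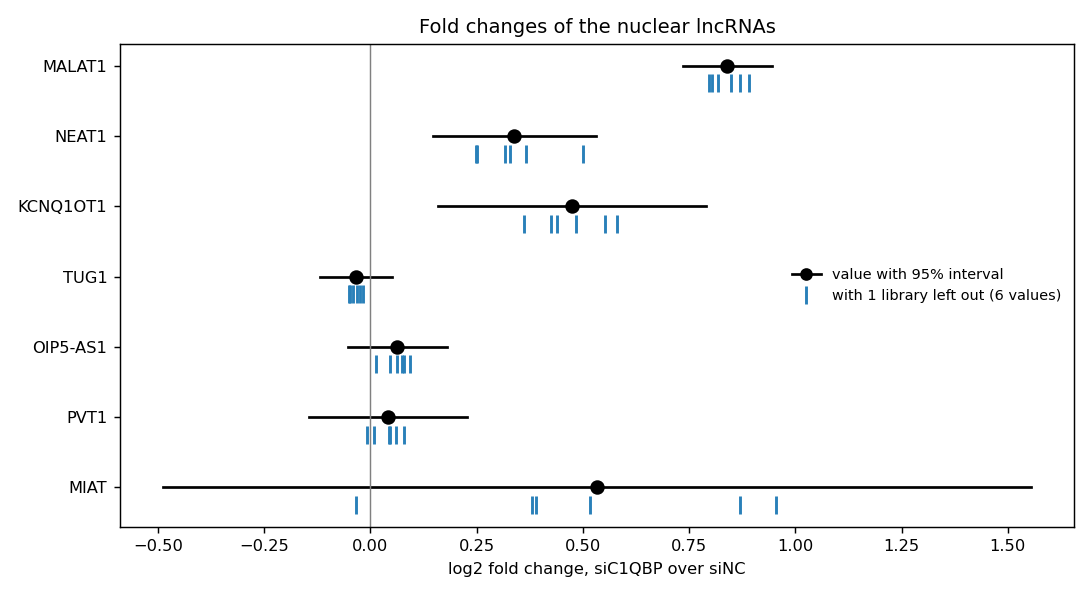
Log2 fold change, siC1QBP over siNC, of the 7 nuclear lncRNAs (horizontal axis). Black points and lines are values with 95% intervals, and blue ticks are the 6 values with 1 library left out. The MALAT1 interval, 0.74 to 0.94, is apart from those of TUG1, OIP5-AS1 and PVT1, which include 0, and the NEAT1 ticks range from 0.25 to 0.50.

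Levels can be compared between genes only per length, for which a TPM value, counts per exon length scaled to the library, was computed over all annotated exons of each gene. In siC1QBP libraries MALAT1 was at 124 ± 6.25 TPM, NEAT1 at 112 ± 23.1 TPM and TUG1 at 64.6 ± 1.19 TPM (SD, n = 3). In siNC libraries NEAT1 was at 87.0 ± 4.23 TPM, MALAT1 at 67.8 ± 5.23 TPM and TUG1 at 64.9 ± 2.38 TPM (SD, n = 3). The ranges of MALAT1 and NEAT1 overlapped in siC1QBP, and those of MALAT1 and TUG1 overlapped in siNC, so these neighbours in the order were not separated by the replicates. OIP5-AS1 followed at 16.4 ± 0.934 TPM in siC1QBP and 15.5 ± 0.392 TPM in siNC, and PVT1 at 9.78 ± 0.575 and 9.33 ± 0.247 TPM. KCNQ1OT1 stood at 0.257 TPM in siC1QBP and 0.181 TPM in siNC, and MIAT at 0.224 and 0.152 TPM. The order depends on the exon model. With the longest transcript in place of all exons the siNC levels were 65.4 TPM for TUG1, 64.6 TPM for NEAT1, 51.0 TPM for MALAT1 and 22.4 TPM for PVT1, and PVT1 then passed OIP5-AS1 at 16.4 TPM.

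Most of these RNAs are long. With the tested genes cut by exon length into 5 classes of 3106 genes, 6 of the 7 are in the longest class (7823 bases or more) and PVT1 is in the class below it. In the longest class 12.7% were called higher and 3.19% lower, with a median log2 fold change of 0.06. The shortest class had 2.90% called higher and 11.4% lower, with a median of -0.04. Of all 1727 tested lncRNA genes 71 were called higher (4.11%) and 15 lower (0.869%), with a median of 0.11, against 6.47% and 7.84% and a median of 0.00 for all tested genes. Of the 298 with at least 5 CPM in either group, 41 were called higher (13.8%) and 13 lower (4.36%), with a median of 0.07. The part of length in the values of the 7 genes was not tested.

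A C-rich word, CCTCCC, occurs in an element that binds HNRNPK and holds RNAs in the nucleus. On the sense strand of the longest transcript its density was 0.230 sites per kb in MALAT1, 0.268 in TUG1, 0.453 in OIP5-AS1, 0.484 in NEAT1, 0.592 in MIAT, 0.600 in KCNQ1OT1 and 1.18 in PVT1. The median over 14203 genes was 0.605 sites per kb, and 80.7% of genes held at least 1 site. The word is therefore common. Of the 7 genes 6 have it below the median density, but KCNQ1OT1 and MIAT are close to that median, above 49.6% and 49.1% of genes. HNRNPK was at 655 ± 14.0 CPM in siC1QBP against 693 ± 16.7 CPM in siNC (SD, n = 3 each) and did not pass (edgeR adjusted p = 0.189).

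Other lncRNAs were described through lists that do not hold the 7 genes but were chosen with earlier results of these data known. Of 10 tested lncRNAs known to stay mostly in the nucleus, 2 rose in the edgeR test (20%, against 6.47% of all tested genes). None fell, and 8 were short of the threshold. The list's median log2 fold change was 0.41, against 0.11 for all tested lncRNA genes and 0.00 for all tested genes. Several of the 10 had few counts over all libraries, among them HOTTIP with 76, CASC15 with 107 and FIRRE with 131. GABPB1-AS1 rose by 0.72 (SE 0.15; edgeR adjusted p = 0.00464), at 6.23 ± 0.206 CPM in siC1QBP against 3.80 ± 0.229 CPM in siNC. FTX, from the X inactivation region, rose by 0.43 (SE 0.12; edgeR adjusted p = 0.0203), at 13.5 ± 1.40 CPM in siC1QBP against 10.02 ± 1.05 CPM in siNC, a call that ended when replicate 1 or 3 of siC1QBP or replicate 2 or 3 of siNC was left out. Of 12 tested lncRNAs found mostly in the cytoplasm, none rose and 6 fell (50%, against 7.84% of all tested genes), with a median of -0.27. The falls were ZFAS1, SNHG6, SNHG5, GAS5, SNHG15 and SNHG1, most of them named as small nucleolar RNA host genes (SNHG). SNHG8 and SNHG12, which bear the same name, and CYTOR did not pass (edgeR adjusted p = 0.152, 0.584 and 0.900). ZFAS1 fell by 0.47 (SE 0.07; edgeR adjusted p = 0.000257), SNHG6 by 0.53 (SE 0.09; edgeR adjusted p = 0.000974) and SNHG5 by 0.58 (SE 0.10; edgeR adjusted p = 0.00101). SNHG5 had 82.9, 120 and 120 CPM in siC1QBP and 147, 170 and 166 CPM in siNC. NORAD, a long cytoplasmic RNA that binds Pumilio proteins, was at 291 ± 11.1 CPM in siC1QBP against 276 ± 5.54 CPM in siNC and did not pass (edgeR adjusted p = 0.294). The difference between the 2 lists was not tested. Their exon lengths differ, with medians of 9146 and 3487.5 bases, and the part of the host genes in the cytoplasmic list was not tested.

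Because MALAT1 and the long NEAT1 isoform can lack a tail, 20 RNAs that carry none were also read. Of these, 11 had no count, 6 had fewer than 10 counts in all, and 2 entered the test. RN7SL2, the RNA of the signal recognition particle, had 63.9, 266 and 107 CPM in siC1QBP replicates 1 to 3, against 46.8, 38.9 and 12.9 CPM in siNC replicates 1 to 3. Its log2 fold change was a rise of 2.14 (SE 0.40; edgeR adjusted p = 0.00202), and the groups did not overlap. It has near-identical copies, among them RN7SL1 with no count, so its value is uncertain. Without siC1QBP replicate 2 the value was 1.38. SNORA73B, the other untailed RNA in the test, was at 0.630 ± 0.142 CPM in siC1QBP against 0.656 ± 0.147 CPM in siNC. It did not pass (edgeR adjusted p = 0.943). SNORD3A had 47 counts in all and was not tested. RN7SL2, NEAT1 and MALAT1 all had their lowest siC1QBP value in replicate 1, where RN7SL2 and MALAT1 were above every siNC library and NEAT1 was not. How the libraries were enriched for RNA is not given in the sources used here, and the part of uneven recovery of untailed RNA in the MALAT1 and NEAT1 values was not tested.

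Most genes for proteins of the bodies around these RNAs did not pass. Of 33 tested paraspeckle proteins 1 rose and 6 fell (18.2%, against 7.84% of all tested genes), with a median log2 fold change of -0.04. RBM14, which paraspeckles need to form, fell by 0.34 (SE 0.05; edgeR adjusted p = 0.000459), at 75.8 ± 3.60 CPM in siC1QBP against 95.7 ± 0.265 CPM in siNC. RBM12 fell by 0.34 (SE 0.05; edgeR adjusted p = 0.000598) and DAZAP1 by 0.24 (SE 0.05; edgeR adjusted p = 0.00201). CPSF7, a subunit of a cleavage factor for polyadenylation, rose by 0.18 (SE 0.04; edgeR adjusted p = 0.00889), a call lost without siNC replicate 2 or 3. The core proteins NONO, at 477 ± 5.77 CPM in siC1QBP against 490 ± 3.23 CPM in siNC, and SFPQ, at 266 ± 12.9 and 281 ± 2.84 CPM, did not pass (edgeR adjusted p = 0.540 and 0.280). The MATR3 entry is uncertain because the annotation holds overlapping copies of this gene. The count of falls was 10 without siC1QBP replicate 1, where 9.20% of all tested genes fell. It was 3 without siC1QBP replicate 2 (6.02% of all tested genes) or without siNC replicate 1 (7.43%), 2 (3.64%) or 3 (3.87%). Under upper quartile scaling it was 3, where 6.09% of all tested genes fell.

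Of 26 tested nuclear speckle proteins none rose and 5 fell (19.2%, against 7.84% of all tested genes), with a median of -0.06. The splicing factors SRSF7 and SRSF9 fell by 0.38 (SE 0.06; edgeR adjusted p = 0.000629) and 0.40 (SE 0.08; edgeR adjusted p = 0.00216), and SRSF2 by 0.24 (SE 0.05; edgeR adjusted p = 0.00524). SRSF7 had 82.8, 94.9 and 100 CPM in siC1QBP, against 120, 120 and 121 CPM in siNC. The speckle scaffolds SON, at 314 ± 6.34 CPM in siC1QBP against 302 ± 7.29 CPM in siNC, and SRRM2, at 414 ± 15.1 and 383 ± 2.75 CPM, did not pass (edgeR adjusted p = 0.401 and 0.0808). The count of falls was 3 without siNC replicate 2, where 3.64% of all tested genes fell.

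**Figure D3:**
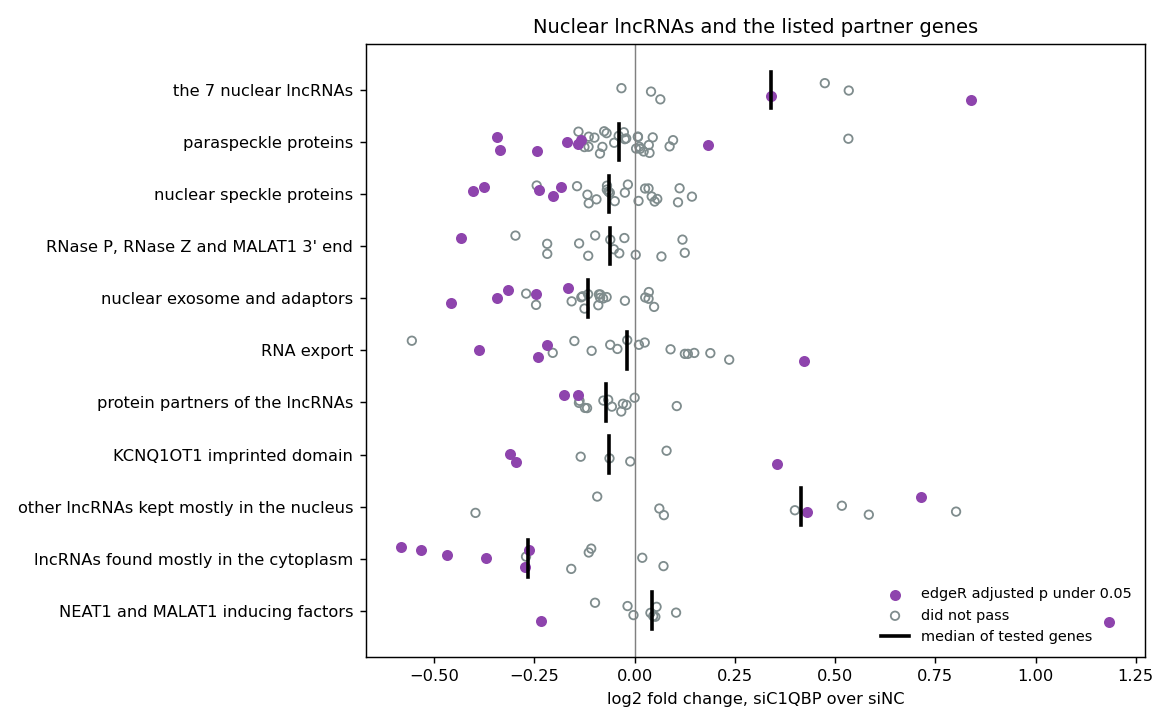
Log2 fold change, siC1QBP over siNC (horizontal axis), of the 7 nuclear lncRNAs and of the tested genes of 10 lists, 1 row each. Filled points passed an edgeR adjusted p of 0.05, open points did not, and black bars are medians of the genes shown. The list of other nuclear lncRNAs has a median of 0.41, that of cytoplasmic lncRNAs -0.27, and the lists of protein-coding genes lie between -0.12 and 0.04. The list of untailed RNAs, with 2 tested genes, is left out.

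The next lists hold genes that act on the ends, decay and export of these RNAs. Of 15 tested genes for RNase P, RNase Z and the MALAT1 end none rose and 1 fell (6.67%, against 7.84% of all tested genes), RPP38, a protein subunit of RNase P, by 0.43 (SE 0.12; edgeR adjusted p = 0.0262), a call that ended when replicate 2 of siC1QBP or replicate 1 or 2 of siNC was left out. The falls in this list numbered 2 without siC1QBP replicate 1 (9.20% of all tested genes), siC1QBP replicate 3 (6.26%) or siNC replicate 1 (7.43%). They numbered 0 without siC1QBP replicate 2 (6.02%) or siNC replicate 2 (3.64%). ELAC2, the RNase Z that trims the tRNA-like RNA, was at 95.7 ± 4.48 CPM in siC1QBP against 99.8 ± 4.94 CPM in siNC, and METTL16, which binds the MALAT1 triple helix, at 37.8 ± 2.55 and 36.1 ± 3.49 CPM, and neither passed (edgeR adjusted p = 0.501 and 0.625). Of 23 tested genes of the nuclear exosome and its adaptors none rose and 5 fell (21.7%, against 7.84% of all tested genes). The list had a median log2 fold change of -0.12. The exosome subunits EXOSC5, EXOSC4 and EXOSC6 fell by 0.46, 0.34 and 0.32 (SE 0.11, 0.08 and 0.09; edgeR adjusted p = 0.00938, 0.0106 and 0.0233). The EXOSC6 call was lost without replicate 2 or 3 of either group, that of EXOSC5 without siNC replicate 2 or 3, and that of EXOSC4 without siNC replicate 2. The count of falls was 3 without siC1QBP replicate 2 (6.02% of all tested genes) or siNC replicate 1 (7.43%). It was 0 without siNC replicate 2 (3.64%) and 1 when siNC replicate 3 was left out (3.87%). Under upper quartile scaling (6.09%) or library size scaling (5.85%) it was 3.

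Of 19 tested RNA export genes 1 rose (5.26%, against 6.47% of all tested genes) and 3 fell (15.8%, against 7.84%), with a median of -0.02. GLE1, which acts at the nuclear pore, rose by 0.42 (SE 0.06; edgeR adjusted p = 0.000230). ALYREF and POLDIP3, adaptors of the export complex, fell by 0.39 and 0.24 (SE 0.06 and 0.05; edgeR adjusted p = 0.000510 and 0.00299). Rises numbered 4 without siC1QBP replicate 1, where 6.99% of all tested genes rose. Of 14 tested proteins known to bind the lncRNAs none rose and 2 fell (14.3%, against 7.84% of all tested genes). These were HNRNPC by 0.18 (SE 0.04; edgeR adjusted p = 0.00568) and TRA2B by 0.14 (SE 0.04; edgeR adjusted p = 0.0332). The call of TRA2B ended when replicate 2 or 3 of siC1QBP or any 1 siNC library was left out, and under upper quartile or library size scaling. The falls in that list numbered 5 without siC1QBP replicate 1, where 9.20% of all tested genes fell. They numbered 1 without any other single library, where 3.64% to 7.43% of all tested genes fell.

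Of 10 tested factors reported to induce MALAT1 or NEAT1, 1 rose and 1 fell, 20% in either direction where 14.3% of all tested genes were called. EGR1, an immediate early transcription factor, rose by 1.18 (SE 0.06; edgeR adjusted p = 2.36e-09), at 60.1 ± 1.07 CPM in siC1QBP against 26.4 ± 0.544 CPM in siNC. MYC fell by 0.23 (SE 0.06; edgeR adjusted p = 0.0101), at 73.2 ± 5.11 and 86.1 ± 0.584 CPM. The hypoxia factor HIF1A, at 513 ± 12.2 CPM in siC1QBP against 519 ± 19.8 CPM in siNC, did not pass (edgeR adjusted p = 0.822). ATF4 was at 379 ± 14.2 CPM in siC1QBP against 369 ± 19.99 CPM in siNC and did not pass (edgeR adjusted p = 0.634).

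Calls among the genes around the loci went in both directions. KCNQ1OT1 had no tested gene within 100 kb, the nearest being CDKN1C at 183219 bases. Of 26 other tested genes within 100 kb of a locus 3 rose and 3 fell, where 6.47% and 7.84% of all tested genes did, with a median log2 fold change of -0.07. The 6 calls became 3 without siC1QBP replicate 3, where 4.73% of all tested genes were called higher and 6.26% lower. They became 2 without siNC replicate 2 (3.29% and 3.64%) and 1 without siNC replicate 3 (3.50% and 3.87%). FRMD8, 9249 bases from NEAT1, had a log2 fold change of -0.08 and did not pass (edgeR adjusted p = 0.282). Near MALAT1, LTBP3, which binds latent TGF-beta, rose by 0.20 and SSSCA1 fell by 0.32 (edgeR adjusted p = 0.0193 and 0.0209), and near NEAT1 the mitochondrial carrier SLC25A45 rose by 0.44 (edgeR adjusted p = 0.0492). The call of LTBP3 was lost without siC1QBP replicate 3 or any 1 siNC library, that of SSSCA1 without siNC replicate 2 or 3, and that of SLC25A45 without replicate 2 or 3 of either group and with DESeq2 or limma-voom.

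OIP5, the partner that OIP5-AS1 overlaps on the opposite strand, fell by 0.36 (SE 0.11; edgeR adjusted p = 0.0353), at 12.3 ± 1.10 CPM in siC1QBP against 15.8 ± 1.83 CPM in siNC. The strand setting of the counting is not given in the sources used here, so reads of this pair may have been exchanged, and the OIP5 call was lost without replicate 3 of siC1QBP or replicate 2 or 3 of siNC and with library size scaling. CHP1, on the other side of OIP5-AS1 at 2100 bases, rose by 0.21 (SE 0.05; edgeR adjusted p = 0.0108), lost without siNC replicate 3. MYC, 53099 bases from PVT1, fell by 0.23 while PVT1 had 0.04. MORC2, 947 bases from TUG1, and MIATNB, which overlaps MIAT on the same strand, had 0.07 and -0.00 and did not pass (edgeR adjusted p = 0.578 and 0.994).

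In the imprinted domain of KCNQ1OT1, 7 of 11 listed genes were tested. Of these, 1 rose (14.3%, against 6.47% of all tested genes) and 2 fell (28.6%, against 7.84%). CDKN1C, the growth inhibitor that KCNQ1OT1 silences on the paternal chromosome, had a log2 fold change of -0.06 (SE 0.19; edgeR adjusted p = 0.867), at 3.27 ± 0.386 CPM in siC1QBP against 3.41 ± 0.257 CPM in siNC. PHLDA2, also imprinted, fell by 0.31 and TSSC4 by 0.30 (SE 0.08 and 0.07; edgeR adjusted p = 0.0150 and 0.0136), and OSBPL5 rose by 0.36 (SE 0.09; edgeR adjusted p = 0.0133). These 3 calls were lost without siNC replicate 2 or 3, and that of TSSC4 also without siC1QBP replicate 2. SLC22A18 was at 12.5 ± 1.41 CPM in siC1QBP against 12.6 ± 2.01 CPM in siNC and did not pass (edgeR adjusted p = 0.968).

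The genes most like MALAT1 and NEAT1 across the 6 libraries were found by the root mean square difference of log2 CPM, each gene centred on its own mean, among genes with at least 5 CPM. Nearest to MALAT1 were STRA6, the cell surface receptor for retinol-binding protein (0.08), the retinol-binding protein RBP5 (0.08), the antisense RNA C1RL-AS1 (0.09), the stress transcription factor ATF3 (0.09) and the tropomyosin TPM4 (0.09). STRA6 had 32.5, 34.3 and 31.6 CPM in siC1QBP, against 19.2, 19.7 and 17.8 CPM in siNC, with the groups apart as in MALAT1. Nearest to NEAT1 were MT-ND3, a mitochondrially encoded subunit of respiratory complex I (0.03), RAPGEFL1 (0.04), the secreted protein WFDC2 (0.06), the potassium channel KCNN3 (0.07) and RNF207 (0.08). MT-ND3 had 405, 571 and 562 CPM in siC1QBP replicates 1 to 3, against 418, 407 and 389 CPM in siNC replicates 1 to 3, with siC1QBP replicate 1 at the siNC level as in NEAT1. These genes were picked for their likeness, so their values are descriptions.

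**Figure D4:**
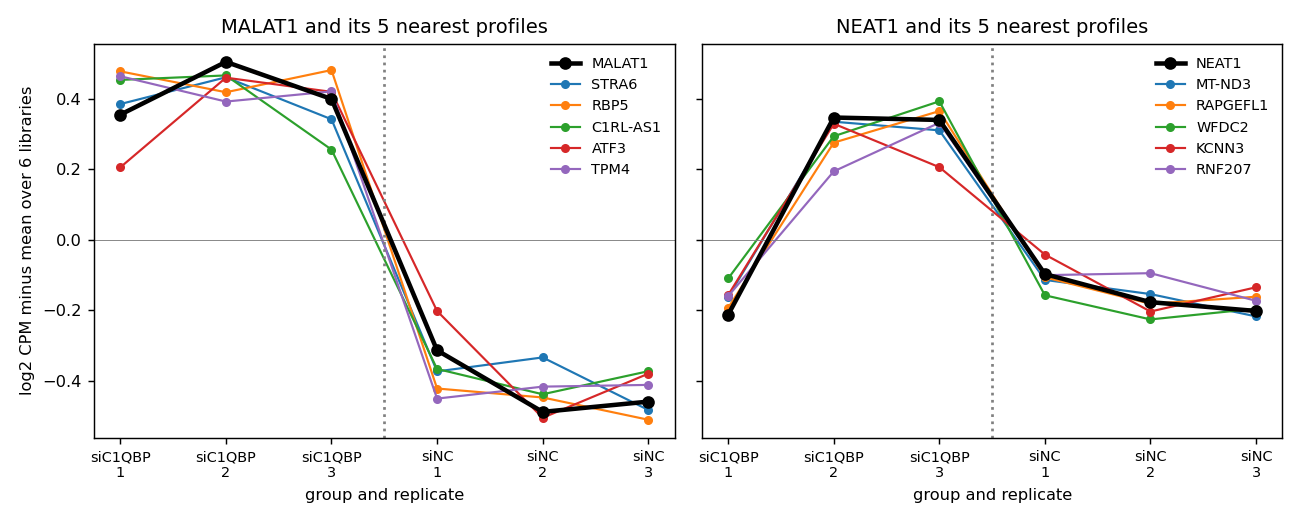
Log2 CPM minus the gene's mean over the 6 libraries (vertical axis) in each siC1QBP and siNC replicate (horizontal axis, siC1QBP left of the dotted line). The left panel shows MALAT1 and the right panel NEAT1 in black, each with its 5 nearest profiles in colour, and lines join the points of a gene as a guide to the eye. MALAT1 and its neighbours are high in all 3 siC1QBP libraries, NEAT1 and its neighbours in siC1QBP replicates 2 and 3.

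By the same measure the 7 lncRNAs did not form a single pattern. TUG1 and OIP5-AS1 were the closest pair (0.07), followed by TUG1 and PVT1 (0.09) and by OIP5-AS1 and PVT1 (0.10), 3 genes that hardly varied. MALAT1 was nearest to KCNQ1OT1 (0.24) and farther from NEAT1 (0.31). NEAT1 was nearest to PVT1 (0.21), and MIAT, with its few counts, was at least 0.47 from each of the others.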

How the data were processed

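The deposited table holds the authors' raw counts, not normalized, for 58735 genes in 6 libraries. RNA extraction used RNeasy columns and library preparation a NEBNext Ultra Directional kit, per the labels' protocols. The genome build was hg38, per the submitters' processing notes. How reads were aligned, counted and assigned to strands is not given in the sources used here. All gene identifiers were found in GENCODE release 29, which supplied transcript lengths and sequences. Exon lengths came with the deposited counts and equalled those of that release for all 58735 genes.

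Counts were tested with the edgeR 4.0.16 quasi-likelihood test in R 4.3.3 (TMM scaling, filterByExpr, treatment as the only term, Benjamini-Hochberg adjustment over 15530 genes, called at an adjusted p under 0.05). Intervals are 95% and cover the fitted spread. Limits from 3 counts cover counting error only. Since the labels name no separate cultures, the p-values reflect only how far these samples differ, and that spread may be technical.

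The members and lists were chosen with earlier results of these data known. Named are the 7 lncRNAs, C1QBP, up to 3 called genes of each list with the smallest p and 1 in the opposite direction, the nearest tested gene and up to 2 called genes within 100 kb of each locus, and the 5 nearest profiles of MALAT1 and NEAT1. Of the genes so chosen, 1 is not reported here. Further list members were named after their values were seen. Alternatives were DESeq2 1.42.0, limma-voom (limma 3.58.1), other scalings and filters, a replicate block, an adjusted p under 0.01 and leaving out libraries. Leaving out replicate 1 of both groups was added after seeing the data.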

Additional observations from a re-analysis of the deposited data

How the results depend on the processing

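No named gene that was called changed sign under the alternatives run, while CDKN1C (-0.13 to 0.03) and MIATNB (-0.12 to 0.14), which did not pass, crossed 0. MALAT1 kept a log2 fold change of 0.80 to 0.93 under every alternative run, NEAT1 0.25 to 0.53, KCNQ1OT1 0.36 to 0.58, TUG1 -0.05 to -0.01 and OIP5-AS1 0.01 to 0.09, while PVT1 (-0.01 to 0.08) and MIAT (-0.03 to 1.30) crossed 0. Of the 7 lncRNAs, 2 were called higher in the edgeR fit (6.47% of all tested genes), 1 with DESeq2 (5.39%) or an adjusted p under 0.01 (3.08%), and 3 with upper quartile scaling (8.24%), library size scaling (8.07%) or the replicate block (8.59%). An adjusted p under 0.01 left 1057 genes (478 higher, 579 lower), 20 listed genes and 0 neighbours, against 38 and 6. With 1 library left out the calls numbered 1105 to 2583 (524 to 1115 higher, 581 to 1468 lower), listed genes 19 to 50 and neighbours 1 to 8. The low ends, 1105 and 1178 genes, came without siNC replicate 2 and without siNC replicate 3. Without replicate 1 of both groups there were 3287 calls, 1912 of them lower, with 60 listed genes and 9 neighbours. Over 903 alternatives for 48 named genes 819 kept their side of the threshold, 75 lost and 9 gained a call. The cause was not tested.

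The labels do not say whether the replicate numbers pair the samples, and the correlations do not settle it. Deviations of same-numbered samples correlated at 0.192, 0.109 and 0.0314 over 11089 genes. Replicates 1 and 2 of either group correlated best with their own number, and replicate 3 of either group did not. With the replicate number as a block 3092 genes were called, 1334 higher and 1758 lower, of which 56 were listed and 7 were neighbours, and MALAT1 stood at 0.84, NEAT1 at 0.32 and KCNQ1OT1 at 0.48.

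Depth limits MIAT, with 67 counts in all, and KCNQ1OT1, with 612. A filter of at least 1 CPM in 3 libraries leaves out MIAT, and a mean of at least 10 CPM also leaves out KCNQ1OT1.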
